A study of Mus musculus with 6 samples.

Results

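Cytosine methylation in mammalian DNA is placed, copied and removed by a small set of proteins, and 7 of their genes (Dnmt1, Dnmt3a, Dnmt3b, Uhrf1, Tet1, Tet2 and Tet3) are described here in donor hematopoietic stem and progenitor cells. They were taken by gene symbol from a deposited table of 23228 genes, and all 7 were found. The cells were LSK cells, marrow cells without lineage antigens that carry Sca-1 and c-Kit, a gate that encloses the stem cells. Donors were wild type and Ly5.1+, and their LSK cells were sorted again for RNA sequencing 8 weeks after transfer to ICAM-1-/- hosts (3 libraries) or to WT hosts (3 libraries), all hosts being Ly5.2+. Ly5.1 and Ly5.2 are alleles of the leukocyte antigen CD45 that tell donor from host. The labels give the strain as C57BL/6 for every sample and put the recipient's genotype on the donor cells. ICAM-1 is an adhesion molecule, and only the hosts of the ICAM-1-/- group carried its deletion, since the profiled cells of both groups came from wild-type donors.

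DNMT1 copies methyl marks onto the new strand after replication, and UHRF1 binds hemimethylated CpG sites and brings DNMT1 to them. DNMT3A and DNMT3B place marks on unmethylated DNA. The TET enzymes oxidise 5-methylcytosine, which opens the way to its loss. In blood, Dnmt3a and Tet2 are known for the stem cell expansion that follows their mutation, and Dnmt1 and Uhrf1 for their need in stem cell maintenance.

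RefSeq lists start-site windows for all 7 genes on GRCm38.p6, 12 windows in all, each with 250 bases before and 50 after an annotated start. The windows were searched on both strands for the E2F-type words TTTCCCGC, TTTCGCGC, TTTGCCGC and TTTGGCGC, since E2F factors drive many replication genes. Of the 12 windows 2 held a match, 1 of Uhrf1 and 1 of Dnmt1, and 2.26% of all 32851 mouse windows held one. Each word contains a CpG, and the share among windows of like CpG number was not counted. The stretches below are shown because these are the maintenance genes, with Dnmt3a, a CpG-dense start without a match, beside them. Capitals mark the matched words, and each stretch reads 5′ to 3′ on the strand of its gene.
Uhrf1 (chr17:56304063-56304312, plus strand): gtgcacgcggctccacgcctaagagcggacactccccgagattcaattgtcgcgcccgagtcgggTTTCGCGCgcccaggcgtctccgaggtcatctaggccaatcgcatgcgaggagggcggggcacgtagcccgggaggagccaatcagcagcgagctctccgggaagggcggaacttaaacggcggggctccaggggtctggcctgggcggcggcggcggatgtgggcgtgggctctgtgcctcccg
Dnmt1 (chr9:20952824-20952853, minus strand): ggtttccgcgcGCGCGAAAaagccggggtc
Dnmt3a (chr12:3806730-3806979, plus strand): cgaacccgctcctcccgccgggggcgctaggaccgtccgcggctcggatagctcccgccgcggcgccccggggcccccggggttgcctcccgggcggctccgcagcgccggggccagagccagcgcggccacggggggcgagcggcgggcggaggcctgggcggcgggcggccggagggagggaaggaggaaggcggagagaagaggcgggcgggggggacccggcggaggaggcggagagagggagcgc
The matched Uhrf1 and Dnmt1 windows held 33 CpG sites each, where the median window held 7. The most CpG-rich window belonged to Tet2, with 57, and the poorest was a distal Dnmt1 start, with 2. The Dnmt1 window holds another match, TTTGGCGC, at 33 bases after the start, outside the stretch shown. A match of letters is a description and says nothing of binding in these cells.

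The libraries were uneven. Genes listed at 0 numbered 12990, 12908 and 9308 in ICAM-1-/- replicates 1, 2 and 3, and 16716, 10167 and 10525 in WT replicates 1, 2 and 3. The values are FPKM, fragment numbers scaled to transcript length and library total. Read depth is therefore unknown, and a 0 is given only as listed at 0. Small RNA genes held 55.1%, 30.2% and 44.5% of summed FPKM in ICAM-1-/- replicates 1, 2 and 3. In WT replicates 1, 2 and 3 they held 72.1%, 26.1% and 32.5%. Scarna2 alone held 43.1% in ICAM-1-/- replicate 1 and 63.9% in WT replicate 1, against 9.53% to 26.7% in the other libraries. Their part in the deviations below was not tested. Of 10 LSK markers, all were above 0 in 5 libraries, while 3 were listed at 0 in WT replicate 1, including Ly6a (Sca-1) and Hlf, with Cd34 there at 0.02 FPKM. Macrophage markers (6 genes) summed to 695, 21.7 and 102 FPKM in ICAM-1-/- replicates 1, 2 and 3, against 1414, 81.5 and 38.6 FPKM in WT replicates 1, 2 and 3, and their part in any value below was not tested. Neutrophil markers (6 genes) summed to 184, 289 and 1280 FPKM in ICAM-1-/- and to 606, 2131 and 641 FPKM in WT replicates 1, 2 and 3. Icam1, deleted in the ICAM-1-/- hosts, was at 32.1, 10.9 and 14.1 FPKM in cells from those hosts, against 26.4, 9.12 and 7.97 FPKM in cells from WT hosts. Since the donor cells were wild type, Icam1 does not check the labels.

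For none of the 7 genes did ICAM-1-/- and WT libraries differ by more than the spread between replicates allowed a test to call. The test was limma's moderated test on log2(FPKM + 1) over the 10477 genes whose mean reached 1 FPKM, all 7 among them, and it called none of the 7 (adjusted p = 1.00 each). Over all tested genes, 0 passed the adjusted threshold of 0.05 (0%), and 54 genes, or 0.515%, had an unadjusted p under 0.05, none of the 7 among them. The groups overlapped for each of the 7, where groups did not overlap for 4.08% of tested genes. Exact two-sided permutation tests gave p between 0.4 and 0.9, and 0.1 is the smallest value 3 against 3 libraries allow. The labels do not say that same-group libraries came from separate animals, although the design text counts 3 recipients per group, so these p-values measure the spread between libraries. In such bulk RNA, fewer cells of a type and less RNA per cell cannot be told apart.

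**Figure D1:**
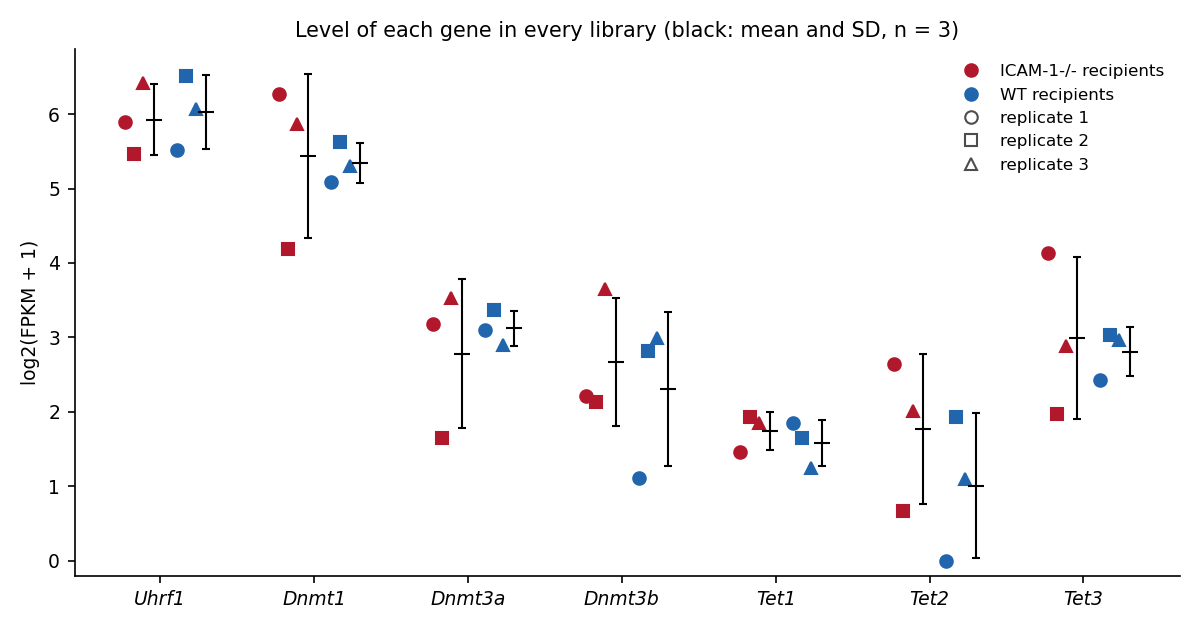
Level of each gene as log2(FPKM + 1) in ICAM-1-/- (red, left) and WT (blue, right) libraries, with replicate numbers as symbols and the mean and SD (n = 3) in black. Uhrf1 and Dnmt1 lie above the other 5 genes in every library, and the groups overlap for all 7.

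The maintenance genes had the highest levels of the set. Uhrf1, the reader of hemimethylated DNA, had 58.2, 43.3 and 84.8 FPKM in ICAM-1-/- replicates 1, 2 and 3, against 44.7, 90.1 and 66.4 FPKM in WT replicates 1, 2 and 3. The groups spanned nearly the same range. It ranked between the percentiles 92.4 and 95.6 of tested genes in all 6 libraries. Its difference was -0.11 ± 0.68 (SE) on the log2(FPKM + 1) scale, with a 95% interval of -1.61 to 1.39, and it was 0.12 without ICAM-1-/- replicate 2 and 0.13 without WT replicate 2. Of its 31-base words, 24.25% also occur in transcripts of other genes, with the predicted gene Gm5648 sharing the most, so its reads may have been split.

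Dnmt1, the maintenance methyltransferase, had 76.2, 17.2 and 57.2 FPKM in ICAM-1-/- replicates 1, 2 and 3, against 33.0, 48.6 and 38.6 FPKM in WT replicates 1, 2 and 3. In FPKM the highest and the lowest of the 6 values were both in ICAM-1-/- libraries. Median-of-ratios scaling, whose size factor was 0.423 for ICAM-1-/- replicate 2 and 0.993 to 1.42 for the other libraries, gave Dnmt1 55.7, 40.7 and 40.1 in ICAM-1-/- replicates 1, 2 and 3, against 25.3, 43.2 and 38.9 in WT replicates 1, 2 and 3, and the lowest value was then that of WT replicate 1. The means were 50.2 ± 30.1 FPKM in ICAM-1-/- and 40.1 ± 7.87 FPKM in WT recipients (SD, n = 3 each). The difference was 0.10 ± 0.76 (SE), with a 95% interval of -1.57 to 1.76. It turned to -0.45 within replicates 2 and 3 and was 0.72 without ICAM-1-/- replicate 2, -0.32 without ICAM-1-/- replicate 1, -0.11 without ICAM-1-/- replicate 3 and -0.03 without WT replicate 1. On mouse chromosome 9 Dnmt1 is a near neighbour of Icam1, with the sphingosine-1-phosphate receptor gene S1pr2 and the mitochondrial ribosomal gene Mrpl4 between them in RefSeq. S1pr2 had 8.84, 0 and 4.66 FPKM in ICAM-1-/- replicates 1, 2 and 3, against 0, 4.11 and 4.15 FPKM in WT replicates 1, 2 and 3, a difference of 0.36 ± 1.11 (SE, limma adjusted p = 1.00).

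Of the de novo enzymes, Dnmt3a had 8.06, 2.13 and 10.5 FPKM in ICAM-1-/- replicates 1, 2 and 3, against 7.55, 9.36 and 6.45 FPKM in WT replicates 1, 2 and 3. The lowest FPKM was that of ICAM-1-/- replicate 2 and the highest that of ICAM-1-/- replicate 3. After scaling Dnmt3a ran from 5.03 in ICAM-1-/- replicate 2 to 8.32 in WT replicate 2. The difference was -0.34 ± 0.86 (SE), with a 95% interval of -2.24 to 1.56, and it was 0.23 without ICAM-1-/- replicate 2. Dnmt3a overlaps the antisense gene Dnmt3aos in exons, and whether reads were counted by strand is not given in the sources used here.

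Dnmt3b had 3.66, 3.37 and 11.6 FPKM in ICAM-1-/- replicates 1, 2 and 3, against 1.16, 6.03 and 6.93 FPKM in WT replicates 1, 2 and 3. WT replicate 1 was the lowest and ICAM-1-/- replicate 3 the highest. ICAM-1-/- replicates 1 and 2 both lay below WT replicates 2 and 3. Its difference was 0.36 ± 0.94 (SE), with a 95% interval of -1.72 to 2.44, and it was -0.01 within replicates 2 and 3, -0.13 with ICAM-1-/- replicate 3 left out and -0.23 with WT replicate 1 left out. Dnmt3b shares 13.48% of its 31-base words with Dnmt3c, a close relative known in mouse for methylating transposons in male germ cells.

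Among the erasers, Tet3 had 16.6, 2.91 and 6.42 FPKM in ICAM-1-/- replicates 1, 2 and 3, against 4.40, 7.20 and 6.80 FPKM in WT replicates 1, 2 and 3. As for Dnmt1, ICAM-1-/- replicate 1 was the highest library and ICAM-1-/- replicate 2 the lowest in FPKM, while WT replicate 1 was the lowest after scaling. The difference was 0.19 ± 0.88 (SE), with a 95% interval of -1.76 to 2.13, with -0.57 within replicates 2 and 3 and -0.38 without ICAM-1-/- replicate 1 (-0.0030 without WT replicate 1).

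Tet2 had the lowest mean level. It had 5.23, 0.589 and 3.05 FPKM in ICAM-1-/- replicates 1, 2 and 3, against 0, 2.82 and 1.13 FPKM in WT replicates 1, 2 and 3. Its difference of 0.77 ± 0.91 (SE) was the largest of the 7, with a 95% interval of -1.24 to 2.78. With WT replicate 1, listed at 0, left out, the difference was 0.26, and it was 0.33 without ICAM-1-/- replicate 1, 1.32 without ICAM-1-/- replicate 2 and 1.23 without WT replicate 2. It was -0.17 within replicates 2 and 3 and 1.67 with a pseudocount of 0.1. Tet2 overlaps the predicted gene Gm42567 of the opposite strand in exons.

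Tet1 had the smallest within-group SD of the 7, 0.28 on the log2 scale. It had 1.74, 2.81 and 2.62 FPKM in ICAM-1-/- replicates 1, 2 and 3, against 2.62, 2.13 and 1.37 FPKM in WT replicates 1, 2 and 3. Tet1 was at its highest in ICAM-1-/- replicate 2, as was Uhrf1 after scaling. The difference was 0.17 ± 0.81 (SE), with a 95% interval of -1.63 to 1.96, and it was -0.0032 with WT replicate 3 left out. Its percentile among tested genes was 51.1 in ICAM-1-/- replicate 2 and 46.8 in WT replicate 1, against 11.6 to 17.8 in the other 4 libraries.

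**Figure D2:**
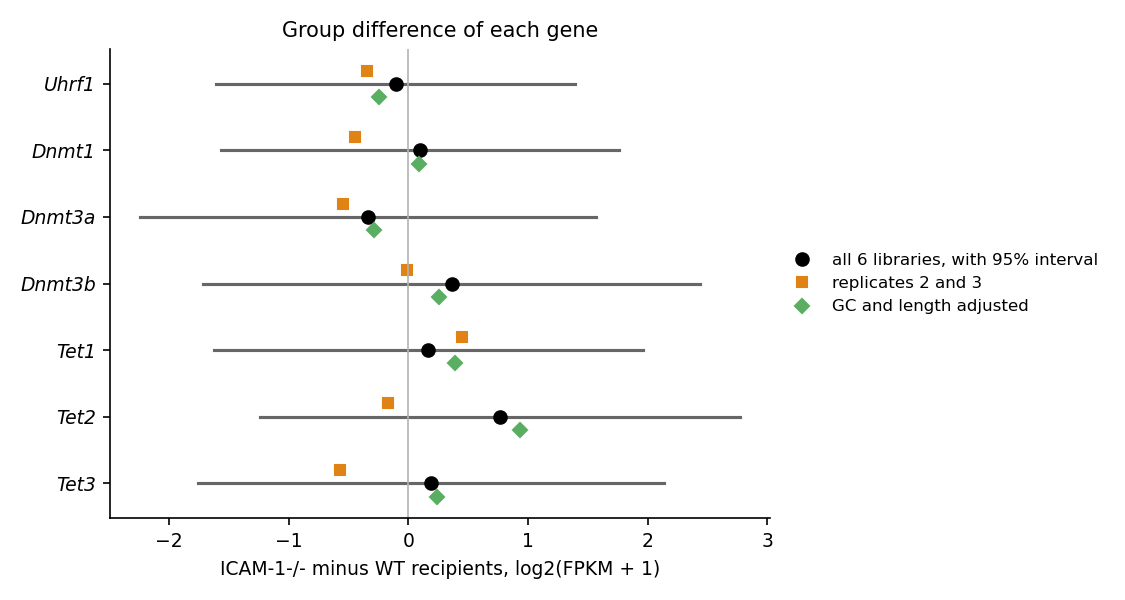
Difference of each gene, ICAM-1-/- minus WT recipients, on the log2(FPKM + 1) scale: black points with 95% limma intervals for all 6 libraries, orange squares for replicates 2 and 3, green diamonds after adjustment for GC content and transcript length. Every interval includes 0, and 6 of 7 squares lie below 0 against 2 of 7 black points.

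Across the set, 5 differences were positive and 2 negative over all 6 libraries, with a list median of 0.17, where the median of all tested genes was 0.08. Within replicates 2 and 3, 1 was positive and 6 were negative, with a median of -0.35, beside -0.32 over all genes. ICAM-1-/- libraries held the highest of the 6 values for 6 genes and the lowest for 4 genes, all 4 lows being in replicate 2. After median-of-ratios scaling they held the highest for 6 genes and the lowest for 2 genes. Of these 2, Dnmt3a alone had its low in replicate 2. The lows of the other 5 genes were in WT replicate 1. The size factors used only genes above 0 in all 6 libraries. After adjustment for GC content and length instead, Dnmt3b, Tet2 and Tet3 kept their lows in WT replicate 1. The low of Dnmt1 was then in ICAM-1-/- replicate 2 and that of Uhrf1 in ICAM-1-/- replicate 1. How often each library was highest or lowest over all tested genes was not counted, so the counts do not single out these genes. WT replicate 1 had 16716 genes listed at 0 and a size factor of 1.30. Its median deviation from the gene means before scaling was -0.73 (log2 scale). The part of this deviation in the lows was not tested. No gene of the set was higher or lower in ICAM-1-/- recipients in all 3 same-numbered pairs, which 7.68% and 4.14% of tested genes were.

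The deviations of ICAM-1-/- replicates 1 and 2 went with the base composition of transcripts. In ICAM-1-/- replicate 1 the median deviation from the gene mean was -0.09 (log2 scale) in the bin of lowest GC content and 0.80 in the highest of 8 bins. In ICAM-1-/- replicate 2 it was -0.72 in the lowest and -1.05 in the highest bin. In WT replicate 1 the GC bins lay between -0.80 and -0.54, with -0.69 in the lowest and -0.80 in the highest. In ICAM-1-/- replicate 3 and in WT replicates 2 and 3 the GC bins differed by less than 0.10. The deviations also went with length: from the shortest to the longest of 8 bins they were 0.11 and 0.39 in ICAM-1-/- replicate 1, -0.56 and -1.03 in ICAM-1-/- replicate 2, and 1.14 and 0.40 in ICAM-1-/- replicate 3. In WT libraries they were -1.83 and 0.24 in replicate 1, 0.60 and 0.14 in replicate 2, and 0.43 and -0.06 in replicate 3. The transcripts of Uhrf1, Dnmt1, Dnmt3a, Dnmt3b and Tet3 have a GC content of 51.9% to 54.0%, against 43.7% for Tet1 and 45.4% for Tet2.

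**Figure D3:**
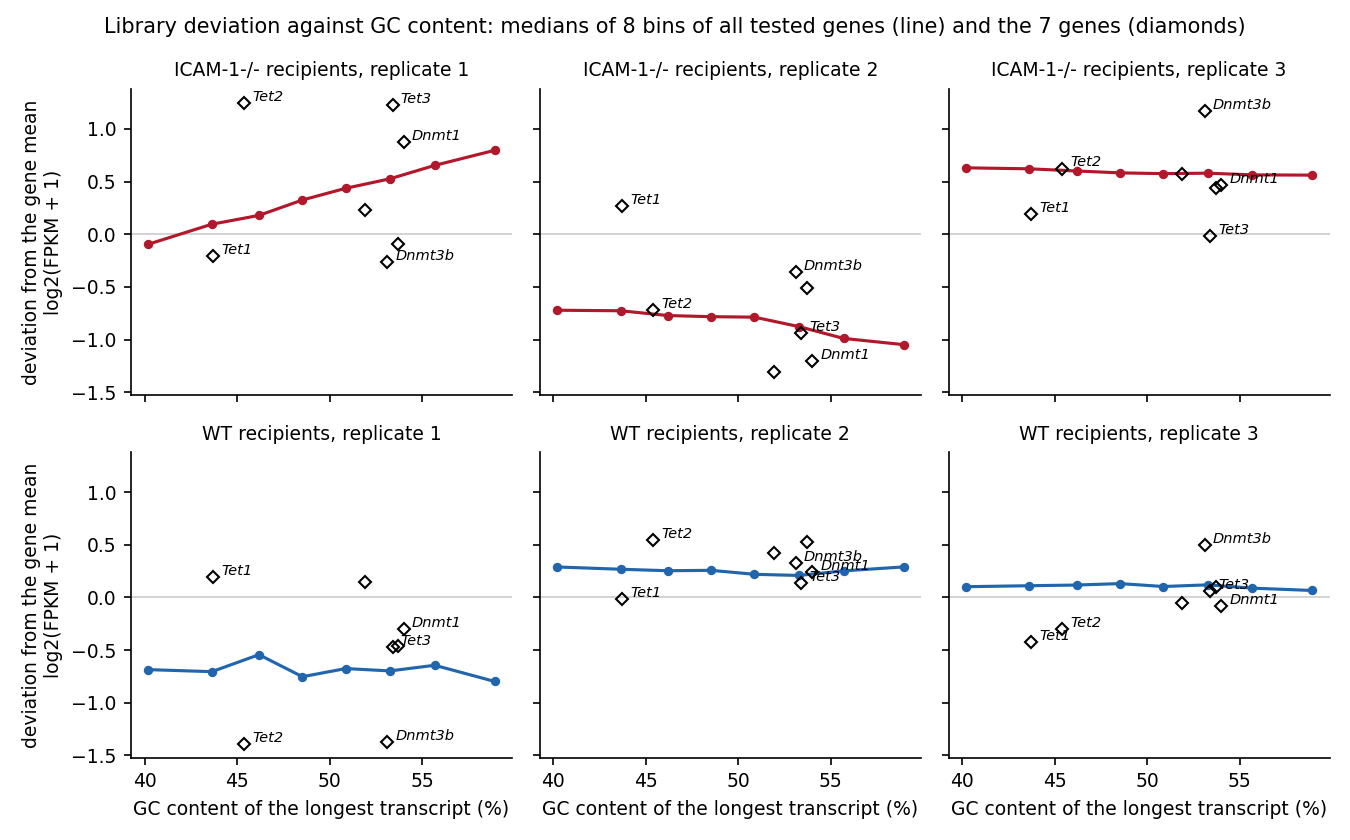
Deviation of each library from the gene mean, log2(FPKM + 1), against the GC content of the longest transcript; lines are medians of 8 bins of tested genes and diamonds the 7 genes. The line climbs to 0.80 in ICAM-1-/- replicate 1 and sinks to -1.05 in ICAM-1-/- replicate 2. Tet1 lies above the line in ICAM-1-/- replicate 2, as do Dnmt3b, Uhrf1 and, by little, Tet2. In WT replicate 1 Tet1 lies above it together with Dnmt1, Dnmt3a, Tet3 and Uhrf1.

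After each library was adjusted for GC content and length, the within-group SD of Dnmt1 was 0.16, against 0.80 without the adjustment. That of Dnmt3a was 0.26, against 0.73, and that of Tet3 was 0.38, against 0.80. Over all genes with a gene model the median SD was 0.90, against 1.09. Tet1 went the other way, with 0.67 against 0.28. The adjustment also took out each library's overall deviation from the gene means. Its median was 0.35, -0.83 and 0.60 in ICAM-1-/- replicates 1, 2 and 3, against -0.73, 0.25 and 0.11 in those of WT. How much of the change in SD came from this shift, and how much from GC content or length, was not tested. The adjusted Dnmt1 levels were 5.64, 5.23 and 5.44 in ICAM-1-/- replicates 1, 2 and 3, against 5.27, 5.46 and 5.31 in WT replicates 1, 2 and 3 on the log2 scale. None of the 7 genes passed after the adjustment, and the differences of Dnmt1 and Tet2 were then 0.09 ± 0.48 and 0.93 ± 0.66 (SE, limma adjusted p = 0.985 and 0.955).

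A difference of log2 values within a library is not moved by library scaling at levels far above the pseudocount of 1. Tet1, Tet2 and, in some libraries, Dnmt3a and Dnmt3b were not far above it. With a pseudocount of 0.1 the group difference of Dnmt3b minus Dnmt3a went from 0.70 to 0.93. That of Tet1 minus Tet2 went from -0.60 to -1.43. Uhrf1 exceeded Dnmt1 in 5 of 6 libraries, by 1.28 and 0.56 log2 units in ICAM-1-/- replicates 2 and 3 and by 0.43, 0.88 and 0.76 in WT replicates 1, 2 and 3. The exception was ICAM-1-/- replicate 1, at -0.38. Dnmt3a lay below Dnmt1 in all 6 libraries, with Dnmt3a minus Dnmt1 at -3.09, -2.54 and -2.34 in ICAM-1-/- replicates 1, 2 and 3, against -1.99, -2.26 and -2.41 in WT replicates 1, 2 and 3. Here 2 of the 3 ICAM-1-/- values lay below every WT value and the groups still overlapped (exact permutation p = 0.2, adjusted 0.75 over 5 contrasts). The group difference of this contrast, -0.43, was -0.10 within replicates 2 and 3 and -0.22 without ICAM-1-/- replicate 1.

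Dnmt3b minus Dnmt3a was -0.12 ± 0.75 in ICAM-1-/- and -0.82 ± 1.06 in WT recipients (SD, n = 3 each, exact permutation p = 0.5). Its group difference of 0.70 was 0.12 without WT replicate 1, 0.40 without ICAM-1-/- replicate 2, 1.12 without ICAM-1-/- replicate 1 and 1.15 without WT replicate 3. Tet3 minus Tet2 was 1.22 ± 0.32 in ICAM-1-/- and 1.80 ± 0.67 in WT recipients (SD, n = 3 each, exact permutation p = 0.3). Its group difference of -0.58 was -0.26 without WT replicate 1, where Tet2 was listed at 0, -0.93 without WT replicate 2 and -1.49 with a pseudocount of 0.1. Tet3 exceeded Tet2 in every library. Tet1 minus Tet2 ran between -1.18 and 1.26 in ICAM-1-/- and between -0.29 and 1.85 in WT libraries.

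**Figure D4:**
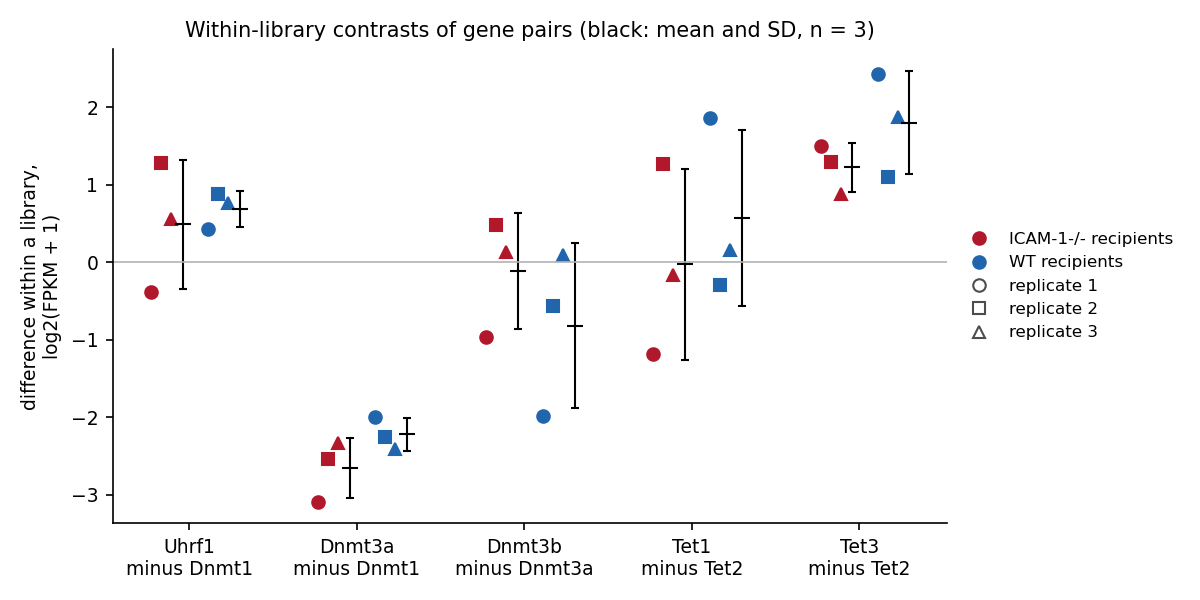
Difference between 2 genes within each library, log2(FPKM + 1), for ICAM-1-/- (red, left) and WT (blue, right) libraries, with the mean and SD (n = 3) in black. Dnmt3a minus Dnmt1 lies between -3.09 and -1.99 throughout, Uhrf1 lies above Dnmt1 except in ICAM-1-/- replicate 1, and the groups overlap in all 5 contrasts.

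In order of mean level the genes were Uhrf1, Dnmt1, Tet3, Dnmt3a, Dnmt3b, Tet1 and Tet2. Dnmt1 exceeded Tet3 and each gene below it in 6 of 6 libraries. Tet3, Dnmt3a and Dnmt3b changed places from library to library, each of these 3 being above either of the others in 3 of 6, and so did Tet1 and Tet2.

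The profiles over the 6 libraries were compared by the root mean square difference of log2 values centred on each gene's mean, a description that also carries what libraries share in quality. Within the set the most alike were Dnmt1 and Tet3 (0.29) and Dnmt1 and Dnmt3a (0.34), and the least alike Tet1 and Tet2 (1.01). Of genes whose mean reached 10 FPKM, clone-like names and small RNA genes were left out, which kept 4132 or 4133. Among these the nearest to Uhrf1 were Fcho1 (0.10), an endocytic adaptor, and the S-phase enzyme thymidine kinase, Tk1 (0.10). Nearest to Dnmt1 were the kinase gene Mknk2 (0.06) and the nucleoporin gene Nup205 (0.08). Dnmt3a lay nearest to the histone gene H2afj (0.08) and to Tm9sf3 (0.10), and Dnmt3b to the ribosomal gene Rplp0 (0.10) and the histone gene Hist2h2ac (0.11). Tet1 lay nearest to the splicing factor gene Prpf31 (0.09) and Fam192a (0.12). The nearest to Tet2 were P4hb (0.19) and Kti12 (0.22), and to Tet3 they were Eif4h (0.18) and H2-Q4 (0.18). Against 12 S-phase genes the median difference was 0.42 for Uhrf1, 0.49 for Dnmt1, 0.62 for Dnmt3b and 0.72 for Tet1. It was 0.44 for Dnmt3a, 0.67 for Tet2 and 0.57 for Tet3. The share of all compared genes that lay nearer than this median was 9.03% for Uhrf1, 21.1% for Dnmt1, 8.71% for Dnmt3b and 26.5% for Tet1. For Dnmt3a, Tet2 and Tet3 the share was 19.55%, 12.7% and 19.4%, each below that of Dnmt1.

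Genes that work with these enzymes gave no call either. Of 7 related lists, 64 genes were tested, and none passed the limma test or had an unadjusted p under 0.05. In FPKM without further scaling, groups did not overlap for 5 of the 64, or 7.81%, beside the 4.08% of all tested genes.

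Of 8 genes on the list of methylation readers, 4 differences were positive and 4 negative (median -0.06). Mbd3 is on this list by its gene family, not as a shown reader, and is a subunit of the NuRD repressor complex. It had 72.4, 32.2 and 33.3 FPKM in ICAM-1-/- replicates 1, 2 and 3, against 8.67, 17.9 and 24.4 FPKM in WT replicates 1, 2 and 3. In FPKM all 3 ICAM-1-/- values lay above all WT values, with a difference of 1.39 ± 0.74 (SE, limma adjusted p = 1.00) and of 0.62 within replicates 2 and 3. The size factor was 1.42 for ICAM-1-/- replicate 3 and 0.993 for WT replicate 3. Divided by these, Mbd3 was lower in ICAM-1-/- replicate 3 than in WT replicate 3, and the groups overlapped.

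Of 9 tested genes of base excision and active demethylation, 3 differences were positive and 6 negative (median -0.07). Gadd45b, a stress-induced gene linked to active demethylation, had 11.5, 7.71 and 8.02 FPKM in ICAM-1-/- replicates 1, 2 and 3, against 0, 2.94 and 3.95 FPKM in WT replicates 1, 2 and 3. Again the groups did not overlap in FPKM, with a difference of 1.88 ± 0.94 (SE, limma adjusted p = 1.00) and of 1.00 within replicates 2 and 3. Tdg, the glycosylase that removes oxidised methylcytosine, was listed at 0 in replicate 1 of both groups. Its replicates 2 and 3 had 16.3 and 18.5 FPKM in ICAM-1-/-, against 21.1 and 16.0 FPKM in WT libraries.

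Of 11 partners and regulators 7 were tested, with 3 positive and 4 negative differences (median -0.07). Ogt, the O-GlcNAc transferase that TET proteins bind, had 12.5, 3.71 and 15.3 FPKM in ICAM-1-/- replicates 1, 2 and 3, against 37.0, 16.6 and 19.6 FPKM in WT replicates 1, 2 and 3. All 3 ICAM-1-/- values were below all WT values, with a difference of -1.24 ± 0.81 (SE, limma adjusted p = 1.00) and of -1.12 within replicates 2 and 3. Hells, a chromatin remodeller needed for full methylation of repeats, had -1.16 ± 0.92 (SE) with overlapping groups. Dnmt3l, the inactive cofactor of DNMT3 enzymes in germ cells, was listed at 0 in 5 libraries, the exception being 0.306 FPKM in ICAM-1-/- replicate 3.

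Of 13 genes that supply the methyl donor or 2-oxoglutarate, the cosubstrate of TET enzymes, 10 differences were positive and 3 negative (median 0.26), where 53.8% of all tested genes were positive. Within replicates 2 and 3 the median was -0.04. Mat2b, the regulatory subunit of methionine adenosyltransferase, had 34.0, 59.8 and 29.8 FPKM in ICAM-1-/- replicates 1, 2 and 3, against 0, 19.5 and 24.6 FPKM in WT replicates 1, 2 and 3. The groups did not overlap in FPKM, with a difference of 2.32 ± 1.16 (SE, limma adjusted p = 1.00) and of 0.92 within replicates 2 and 3. Divided by the size factors, Mat2b too was lower in ICAM-1-/- replicate 3 than in WT replicate 3. In WT replicate 1, 7 of the 13 genes were listed at 0, Mat2b among them.

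The 12 S-phase companions split into 6 positive and 6 negative differences (median 0.03), with Tyms, thymidylate synthase, at -1.19 ± 0.88 and Rrm2, a ribonucleotide reductase subunit, at -1.15 ± 0.90 (SE). Among 5 writers of histone H3 methylation that guides DNMT3 enzymes, 1 difference was positive and 4 were negative (median -0.36), with Nsd1 at -0.59 ± 0.84 (SE). The 10 genes common to most cells had a median of 0.32, with Hprt at 0.58 ± 0.67 (SE), and 3 of them, Gapdh among them, were listed at 0 in WT replicate 1. Within replicates 2 and 3 the medians were -0.10 for the common genes, -0.29 for the S-phase genes, -0.67 for the histone writers, -0.68 for base excision, -0.40 for the partners and -0.06 for the readers, beside -0.32 over all tested genes.

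**Figure D5:**
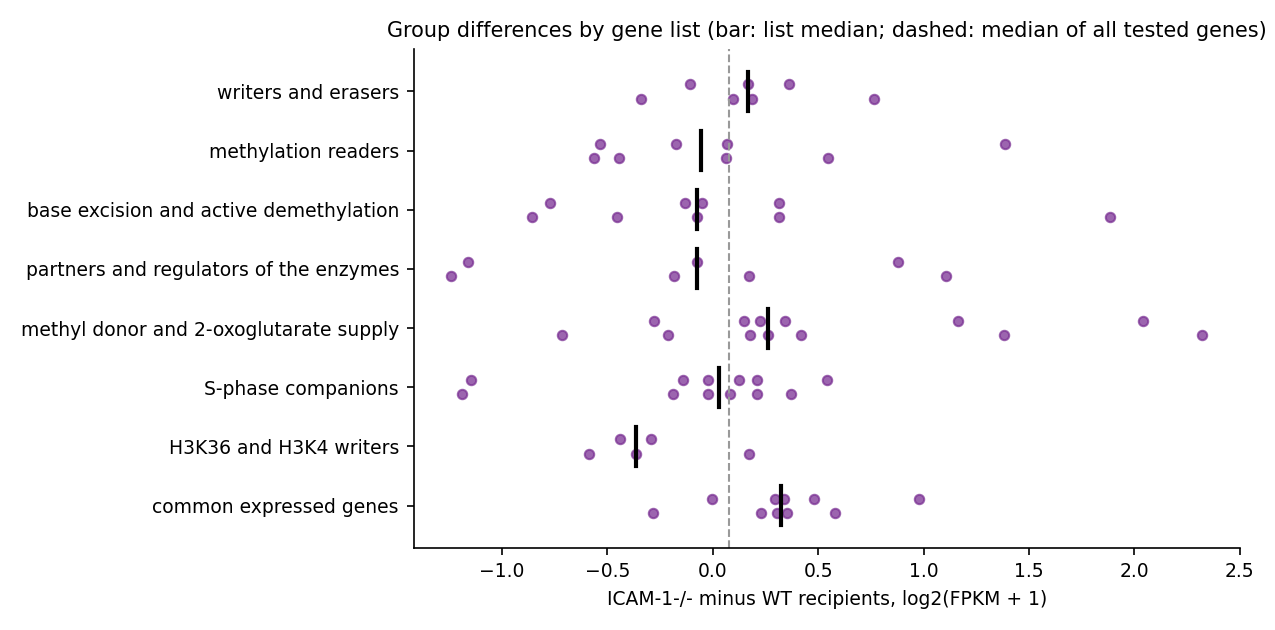
Group differences on the log2(FPKM + 1) scale, ICAM-1-/- minus WT recipients, for the 7 genes and for 7 related lists; bars are list medians and the dashed line is the median of all tested genes, 0.08. The medians over all 6 libraries lie between -0.36 and 0.32, and no point passed the limma test.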

How the data were processed

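The authors deposited gene-level FPKM values with 1 column per library. The submitters' processing notes name cutadapt, TopHat2 2.0.11 and Cufflinks 2.1.1; for genome build, annotation and strand setting the sources used here give nothing. Per the labels' protocols, Trizol RNA went into Illumina TruSeq libraries. FPKM keeps no read counts, so depth and counting error are unknown.

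Values were analysed as log2(FPKM + 1), a scale that understates changes of low genes, keeping the 10477 genes whose mean reached 1 FPKM. limma 3.58.1 in R 4.3.3 fitted group as the only term with a mean-variance trend, with Benjamini-Hochberg adjustment over all genes at 0.05. The code was tested on simulated data. Intervals are limma's 95% intervals. GC content and length came from the longest GENCODE M21 transcript of each symbol and matched 90.7% of tested genes. The adjustment subtracts a lowess curve (span 0.3) of each library's deviation over GC content, then over length. The curve also removes the library's overall deviation. Promoter sequences are RefSeq's.

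The gene set, the lists and the alternatives were chosen with earlier results of these data known. Named genes were the 7 genes, Icam1, list genes, at most 4 of smallest p in the S-phase and common lists, and the 2 genes of nearest profile to each. S1pr2 and Mrpl4 were named for their place between Dnmt1 and Icam1, and values are given for S1pr2 only. Libraries of replicate number 1, 2 and 3 correlated across groups in their deviations (r = 0.35, 0.13 and 0.31), and a replicate block was read as a pairing, inferred from the data and not stated in the labels. Numbers 2 and 3 could not be told apart, since ICAM-1-/- replicate 2 with WT replicate 3 gave 0.15 and ICAM-1-/- replicate 3 with WT replicate 2 gave 0.31. 1 listed gene, Kmt2d, could not be matched to a row without doubt. Some genes of the lists are counted but not reported here by name.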

Additional observations from a re-analysis of the deposited data

How the results depend on the processing

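None of the 7 genes passed under any of 18 alternatives, the lowest limma adjusted p being 0.911, and no related-list gene passed in any. The count of all called genes, 0 at the main settings, was 13 with the replicate number as a block, 18 within replicates 2 and 3, 4 with library weights and 0 to 2 when each library was left out in turn (2 without ICAM-1-/- replicate 1, 1 without ICAM-1-/- replicate 3 or WT replicate 1); the block changed no call of a gene in the set. The GC and length adjustment, added after seeing the data, gave 0 calls with and without the block. The sign turned in 18 of the 126 values that 7 genes had over these alternatives: within replicates 2 and 3 for Dnmt1 (-0.45), Dnmt3b (-0.0093), Tet2 (-0.17) and Tet3 (-0.57), with library weights for Dnmt3a (0.19), with median-of-ratios scaling for Uhrf1 (0.16), and without small RNA genes for Dnmt1 (-0.0095). Leaving out each library gave ranges of -0.32 to 0.72 for Dnmt1, -0.71 to 0.23 for Dnmt3a, -0.23 to 0.70 for Dnmt3b, -0.0032 to 0.31 for Tet1, 0.26 to 1.32 for Tet2, -0.38 to 0.70 for Tet3 and -0.36 to 0.13 for Uhrf1. The group difference of Uhrf1 minus Dnmt1 was -0.20 at the main settings and 0.10 within replicates 2 and 3. It ran from -0.60 to 0.23 over single omissions. The group difference of Tet1 minus Tet2 was -0.60 at the main settings and 0.62 within replicates 2 and 3. It was 0.041 with near-zero values as missing (WT replicate 1 dropped) and ran from -1.25 to 0.041 over single omissions. The group differences of the other 3 contrasts kept their direction. The cause was not tested. FPKM without counts limits all of this.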
